A study of Mus musculus with 4 samples.

Results

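The nuclei described here are the 58 that the authors labelled Ad IIb in a single-nucleus RNA library from epigonadal white adipose tissue, the fat depot attached to the male gonad. They were found by that library and that label in the authors' deposited table of nuclei. They made up 3.71% of the 1564 labelled nuclei of the library, beside 590 Ad IIa, 658 Ad IIc, 106 Ad Ia and 152 Ad Ib nuclei. A further 3479 barcodes of the library carried no label. The study set nuclei of thymic adipocytes beside those of epigonadal fat, and 1929 nuclei of both 4-month libraries carried a label. Both libraries came from wild-type, naïve male mice. The thymic library was pooled from 6 C57/BL6 males on standard chow. For the epigonadal library the labels give the tissue, genotype and treatment, and its age of 4 months and sex stand in the library name. The sources used here do not state its number of animals, strain or diet. Tissue was digested with collagenase and DNase, the floating layer was taken as adipocytes, and nuclei were isolated from it. Cells of other kinds that float or cling to fat droplets can be in such a layer. The authors' labels came from clustering these same nuclei, so every difference between labels below is a description and not a test. There was 1 library per group and no p-value is given.

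The library is labelled as adipocytes, but the Ad IIb nuclei, like those labelled Ad IIa, carried RNA of blood vessels. Endothelial cells line blood vessels, and in white fat the capillary endothelium takes up fatty acids released from lipoproteins and passes them on to adipocytes. Arterial, capillary and venous endothelial cells share a common set of genes, such as the junction proteins Pecam1 and Cdh5 and the receptor Flt1, and differ in others. Arterial identity depends on VEGF and Notch signalling and on Sox17, whereas capillaries of fat are rich in Cd36, Fabp4, Gpihbp1, Aqp1 and Car4.

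Values are raw molecule counts (UMIs, unique molecular identifiers) summed over the nuclei of a label. Levels are CPM, the UMIs of a gene scaled to a common total of nuclear-encoded UMIs. The 58 Ad IIb nuclei held 140743 nuclear-encoded UMIs, with 516 to 6035 UMIs in a nucleus (median 2313). The median was 1916 in Ad IIa and 714 in Ad IIc, and that of Ad Ib was 678.5 and of Ad Ia 1077. The median nucleus had 1184.5 detected genes. Mitochondrial UMIs made up a median of 2.84% (0.373% to 11.2%), against 4.63% in Ad IIa and 6.05% in Ad IIc. Ribosomal protein RNA was at 27618 CPM against 38364 CPM in Ad IIa. The nuclear transcripts Malat1, Neat1 and Meg3 were at 12029 CPM together, against 10402 CPM in Ad IIa and 1829 CPM in Ad IIc. The authors classed every labelled nucleus as a singlet. The epigonadal and thymic libraries shared 147 barcodes, none of them labelled in both. Of the 58 Ad IIb barcodes, 2 were among these.

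Endothelial RNA was present in every Ad IIb nucleus. Each held 5 to 14 of the 16 endothelial markers (median 10), and these markers made up 0.712% to 2.55% of its UMIs (median 1.31%). Pecam1, an adhesion protein of endothelial junctions, had 186 UMIs in 54 of the 58 nuclei, or 93.1% (Clopper-Pearson 95% interval 83.3% to 98.1%). It was seen in 72.0% of Ad IIa and 13.2% of Ad Ia nuclei, the latter a type with adipocyte RNA that should lack it. Depths differ between the labels, so each nucleus was also thinned to 1000 UMIs, which left 55 Ad IIb, 469 Ad IIa and 54 Ad Ia nuclei. The expected shares were then 73.0%, 55.8% and 9.76%. Flt1, a receptor for VEGF, was seen in 96.6% of Ad IIb nuclei (84.4% after thinning), 82.0% of Ad IIa (74.6%) and 15.1% of Ad Ia (16.6%). Cdh5, the cadherin of endothelial junctions, was seen in 58.6% of Ad IIb nuclei (31.5% after thinning), 62.4% of Ad IIa (44.3%) and 8.49% of Ad Ia. In all 152 Ad Ib nuclei the shares of Pecam1, Flt1 and Cdh5 were 15.8%, 18.4% and 10.5%. Only 20 Ad Ib nuclei were left after thinning, and their shares were 22.4%, 48.2% and 24.2%, closer to those of Ad IIb. At either depth the Pecam1 and Flt1 shares were above those of Ad IIa, and the Cdh5 share was below. All intervals cover counting error only.

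Summed over the 16 endothelial markers, the level was 13322 CPM in Ad IIb, 11628 in Ad IIa, 2644 in Ad Ib, 1065 in Ad Ia and 639 in Ad IIc. The barcodes without a label, a mix of other cells and free RNA, stood at 3299.95 CPM. Endothelial RNA therefore separated Ad IIb and Ad IIa from the other labels and from the unlabelled barcodes. The 16 adipocyte markers ran the other way, at 4569 CPM in Ad IIb, 8174 in Ad IIa, 19109.9 in Ad Ib, 34235 in Ad Ia and 32075 in Ad IIc. Their level in Ad IIb was also under the 12507 CPM of the unlabelled barcodes. Of the adipocyte markers, 15 of 16 had at least 1 UMI in Ad IIb. The exception was Lep, the hormone leptin, with 0 UMIs against 48 in Ad IIa. Adipoq, the adipocyte hormone adiponectin, had 36 UMIs in 20 nuclei. In a single Ad IIb nucleus the adipocyte share of UMIs ran from 0.0734% to 1.47% (median 0.393%), against medians of 0.769% in Ad IIa, 3.26% in Ad Ia and 3.08% in Ad IIc. Endothelial UMIs outnumbered adipocyte UMIs in 52 of 58 Ad IIb nuclei (89.7%), in 407 of 590 Ad IIa (69.0%) and in 1 of 658 Ad IIc nuclei.

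**Figure D1:**
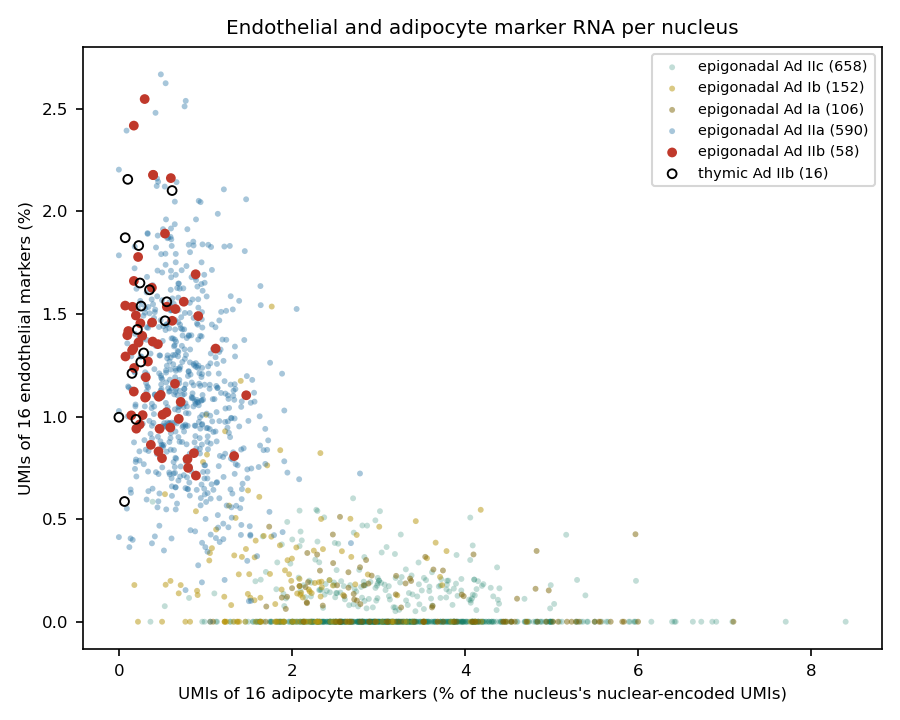
Share of a nucleus's nuclear-encoded UMIs in 16 endothelial markers (vertical axis, percent) against 16 adipocyte markers (horizontal axis, percent), 1 point per nucleus and 1 colour per label. The red points, the 58 epigonadal Ad IIb nuclei, lie at 0.712% to 2.55% endothelial and 0.0734% to 1.47% adipocyte RNA, among the Ad IIa nuclei and apart from most Ad Ia, Ad Ib and Ad IIc nuclei.

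Most lists of markers of other cells of fat were at low levels in the Ad IIb nuclei. All 8 mesothelial and all 7 epithelial markers had 0 UMIs, where a count of 0 allows up to 21.3 CPM. The 13 fibroblast markers reached 576 CPM together, with Pdgfra at 0 UMIs and 4 of the 13 at 0, against 934 CPM in Ad IIa and 3942 in Ad IIc. Of the 5 with enough counts to compare with Ad IIa, by the rule given below, Fbn1 was higher (6.14% over all genes) and Gsn lower (4.82%). Mural markers, those of pericytes and smooth muscle, were at 171 CPM with 5 of 11 at 0. Macrophage markers were at 355 CPM with 8 of 12 at 0, against 246 CPM in Ad IIa and 1060.4 in the unlabelled barcodes, and most of this was Mertk with 44 UMIs, a receptor that clears dying cells. Dendritic cell markers were at 391 CPM with 6 of 8 at 0, against 428 CPM in Ad IIa and 227 in the unlabelled barcodes. Of their 55 UMIs 54 were Zbtb46. Its log2 ratio was −0.11 against Ad IIa, 2.72 against Ad Ia and Ad Ib together and 4.74 against Ad IIc. Its level in Ad IIb was thus close to that of Ad IIa, the other label with endothelial RNA. Lymphatic endothelial markers were at 78.2 CPM, all of it Flt4 with 11 UMIs, while Prox1, the defining lymphatic factor, was at 0. T cell markers were at 35.5 CPM against 137 in Ad IIa. The T cell gene Cd247 accounted for most of the latter, with 164 UMIs in Ad IIa and 4 in Ad IIb. The B cell list reached 3247 CPM, but 3219 CPM of it was Ebf1, a factor also found in adipocytes and vessel cells. The part of these other cells' RNA in the differences below was not tested.

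**Figure D2:**
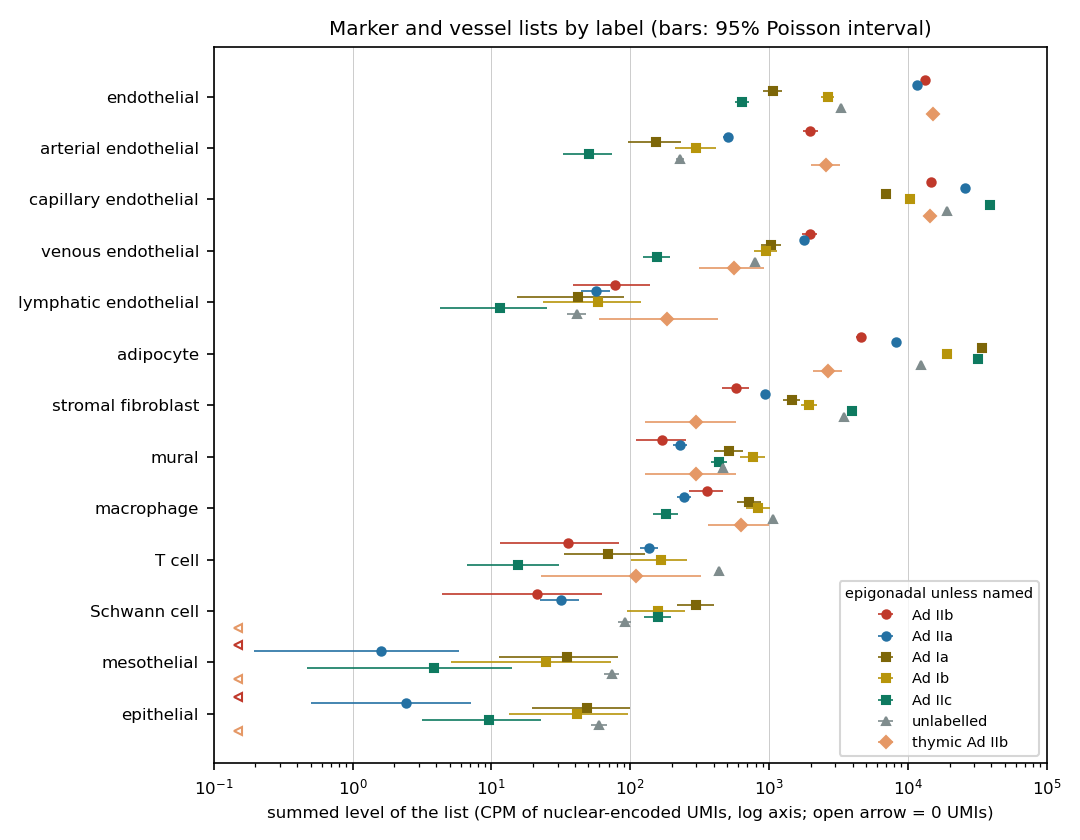
Summed level of each marker or vessel list (vertical axis) in CPM of nuclear-encoded UMIs (horizontal log axis) for each epigonadal label, the unlabelled barcodes and the 16 thymic Ad IIb nuclei, with 95% Poisson intervals and open arrows for 0 UMIs. The endothelial list is at 13322 CPM in Ad IIb and 11628 in Ad IIa, and the arterial list at 1989 and 506.

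The closest label was Ad IIa, and arterial genes had a higher summed level in the Ad IIb nuclei, while 3 of 12 genes of fat capillaries were lower, Aqp1, Car4 and Fabp4. Over all genes with enough counts to compare (at least 5 UMIs expected in the smaller sum at the mean of both levels), 288 of 4687 were at least 2-fold higher in Ad IIb with a 95% counting interval that left out equality (6.14%), and 226 were lower (4.82%). The words higher and lower are used below in this sense. The median log2 ratio over all 4687 genes was 0.05. Of these calls 56.0% were higher. The share was 47.3% with TMM scaling, which turns the balance, 51.0% with median-of-ratios scaling, which does not, and 87.8% with a pseudocount of 5. A gene of low level can reach the minimum through the label where it is high, so counts among the compared genes of a list describe those genes and support nothing more. Leaving out the 2 barcodes shared with the thymic library gave 283 higher and 212 lower genes. The shared endothelial markers did not separate the 2 labels by this measure. Of 16, none was higher and none lower, 9 lay above 0 and 7 below, and their median log2 ratio was 0.08. The nearest to the limit were Mmrn2 at 0.88 (95% counting interval 0.33 to 1.37) and Cldn5, a tight junction protein, at −0.69 (−1.31 to −0.17).

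Arterial genes were at 1989 CPM in Ad IIb and 506 in Ad IIa, a summed log2 ratio of 1.98. This sum covers all 12 genes of the list. Of the 12, 8 had enough counts. Each of these was counted as higher, Sox17 only just (6.14% over all genes). Gja5, Vegfc and Fbln5 reached the minimum through their counts in Ad IIb. Sema3g, a secreted guidance protein typical of arterial endothelium, had 52 UMIs in 22 Ad IIb nuclei and 102 UMIs in 91 of the 590 Ad IIa nuclei. This was 369.5 CPM against 82.5, a 4.50-fold difference (3.15 to 6.32). Gja5, the arterial gap junction protein connexin 40, had 15 UMIs in 8 Ad IIb nuclei and 1 UMI in Ad IIa, a log2 ratio of 6.51 (4.34 to 12.44). Of the 15 Gja5 UMIs, 6 came from 1 nucleus. Without it the ratio was 5.83 and too few counts were left for the comparison. The bases upstream of the start of both genes are shown because Sema3g and Gja5 are genes by which arteries are recognised. They come from RefSeq, build GRCm38.p6. Each run is 250 bases, 5′ to 3′ on the strand of the gene, and capitals mark a match to GGAAG (the core of sites for ETS factors such as Erg) on either strand. The Sema3g run is chr14:31217623-31217872 on the plus strand and the Gja5 run is chr3:97032152-97032401 on the plus strand.
Sema3g promoter: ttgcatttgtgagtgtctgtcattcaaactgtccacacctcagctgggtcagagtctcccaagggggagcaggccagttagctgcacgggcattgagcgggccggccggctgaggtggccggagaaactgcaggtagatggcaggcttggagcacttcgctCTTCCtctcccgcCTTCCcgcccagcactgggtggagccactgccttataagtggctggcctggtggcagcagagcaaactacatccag
Gja5 promoter: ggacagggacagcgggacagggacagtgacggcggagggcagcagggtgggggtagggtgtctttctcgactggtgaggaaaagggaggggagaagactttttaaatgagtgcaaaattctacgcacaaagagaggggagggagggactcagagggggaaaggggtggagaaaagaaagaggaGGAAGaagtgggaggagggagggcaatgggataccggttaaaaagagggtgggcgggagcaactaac
Sema3g had 2 such matches and Gja5 1. Among all 32851 RefSeq mouse promoters of the same length, 64.1% had at least 1, so a match is common. Neither run held TGGGAA (the site of the Notch factor Rbpj, 21.6% of promoters) or ACAAT (the core of sites for SOX factors, 27.7%), on either strand.

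The other arterial genes varied in how much they differed. Vegfc, a VEGF family ligand, had 35 UMIs in 16 Ad IIb nuclei and 23 in 11 Ad IIa nuclei, a 13.3-fold difference in level (7.68 to 23.7). Fbln5, an elastic fibre protein, had 40 UMIs in 23 nuclei against 33 in 28, a 10.6-fold difference (6.55 to 17.4). These are large differences in genes of low level, at 249 and 284 CPM in Ad IIb. Efnb2, the ephrin that marks arteries, was at 433 against 163 CPM (2.67-fold, 1.96 to 3.55). Sox17 was at 192 against 97.0 CPM (2.01-fold, 1.25 to 3.02), just past the limit of 2-fold. Its log2 ratio was 0.93 with TMM and 0.96 with median-of-ratios scaling, which ends the call. The Notch ligands Dll4 and Jag1 had log2 ratios of 1.32 (0.27 to 2.19) and 1.35 (0.57 to 2.03). Hey1, a Notch target, with 8 UMIs, Stmn2 with 5, and Gja4 and Bmx with 1 each had too few counts. Sema3g was seen in 37.9% of Ad IIb and 15.4% of Ad IIa nuclei, or 23.2% and 7.36% at 1000 UMIs, and in 0.943% of Ad Ia nuclei. The same order held for Fbln5, at 39.7% and 4.75% (23.2% and 1.96% at 1000 UMIs), with 0 of 106 Ad Ia nuclei. The arterial list made up 0% to 0.639% of the UMIs of a single Ad IIb nucleus (median 0.152%, against 0.0282% in Ad IIa).

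Genes of fat capillaries were at 14679 CPM in Ad IIb and 25638 in Ad IIa, a summed log2 ratio of −0.80. Most UMIs of the list in both labels were those of Fabp4. The list stood at 39026 CPM in Ad IIc, a label with adipocyte RNA, so its sum is no measure of capillary RNA alone. Of the 12 genes, all compared, 3 were lower (4.82% over all genes), none was higher, 9 lay below 0 and 3 above, and the median log2 ratio was −0.49. Aqp1, a water channel, had 9 UMIs in 7 Ad IIb nuclei against 597 in 230 Ad IIa nuclei (7.16-fold lower). Car4, a carbonic anhydrase on the capillary surface, had 7 UMIs against 394 (5.98-fold lower). Aqp1 was seen in 4.69% of Ad IIb and 29.1% of Ad IIa nuclei at 1000 UMIs. In Ad Ia it was at 1.68% and in Ad IIc at 6.43%, so its share in Ad IIb was within the range of the labels with little endothelial RNA. Fabp4, a fatty acid carrier of adipocytes and fat capillaries, was at 7631 CPM against 15308 (2.01-fold lower). It stood at 36252 CPM in Ad IIc, 15392 in the unlabelled barcodes and 6174 in Ad I, so the level in Ad IIb lay within the range of the labels with adipocyte RNA. Cd36, the fatty acid transporter, had a log2 ratio of −0.71 (−0.84 to −0.58) and Gpihbp1, which anchors lipoprotein lipase in capillaries, −0.36 (−0.83 to 0.06). The transcription factors of fat capillaries Meox2 and Tcf15 had log2 ratios of −0.02 (−0.68 to 0.55) and −0.35 (−1.30 to 0.39). The capillary genes therefore differed unevenly, by the most for Aqp1 and Car4 and within counting error for Gpihbp1, Meox2 and Tcf15.

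Of the venous list 2 of 5 compared genes were higher in Ad IIb (6.14% over all genes) and none was lower. Both, Plvap and Vwf, reached the minimum through their counts in Ad IIb. Plvap, which forms the diaphragms of fenestrated capillaries and of veins, had 44 UMIs in 22 Ad IIb nuclei and 40 UMIs in 26 of the 590 Ad IIa nuclei. This was 313 against 32.3 CPM (9.66-fold, 6.16 to 15.2). At 1000 UMIs it was seen in 24.4% of Ad IIb and 2.13% of Ad IIa nuclei, and it was in 0 of 106 Ad Ia nuclei. Plvap lies at chr8:71497753-71511806 (mm10). Vwf, the clotting factor of larger vessels, had 8 UMIs against 20, a log2 ratio of 1.87 (0.42 to 3.06). Most UMIs of the venous list were those of Tshz2, a transcription factor, with 187 UMIs in Ad IIb at 1329 against 1465 CPM. The list as a whole was at 1968 CPM against 1783. Ephb4, the receptor of Efnb2, had 23 UMIs and a log2 ratio of 0.31 (−0.41 to 0.92). Ackr1 and Sele had 0 UMIs, Selp 1, Vcam1 2, Il1r1 4, and Nr2f2, the factor of venous identity, 8 UMIs with a log2 ratio of −0.59 (−1.92 to 0.36). The list of sprouting tip cells was at 1755 CPM against 1231, a summed log2 ratio of 0.51 (0.31 to 0.71). Most of it came from the basement membrane collagens Col4a1, with 136 UMIs, and Col4a2, with 91. Apln, Esm1, Pgf, Angpt2 and Kcne3 had 0 UMIs, Cxcr4 had 2 and Nid2 5, and of the 3 compared genes Dll4 was higher.

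The 15 largest differences in each direction held genes of several kinds, and the higher ones were mostly seen in a fraction of the Ad IIb nuclei. Chrm3, a muscarinic acetylcholine receptor, had 37 UMIs in 13 Ad IIb nuclei and 0 in 590 Ad IIa nuclei, where 0 UMIs allow up to 2.42 CPM. It was at least 108-fold higher. In other labels it was at 15.2 CPM in Ad I (Ad Ia and Ad Ib together) and 33.4 CPM in the unlabelled barcodes. The long noncoding RNA Mannr had 17 UMIs in 10 nuclei and 0 in Ad IIa, at least 49.8-fold higher. Col13a1, a transmembrane collagen, had 16 UMIs in 10 nuclei against 1 UMI. The bases upstream of Chrm3 (chr13:10360804-10361053, minus strand) and Col13a1 (chr10:61979109-61979358, minus strand) are shown for comparison with the arterial genes, since both were seen in nuclei other than those with Sema3g (below). Capitals mark GGAAG and TGGGAA on either strand.
Chrm3 promoter: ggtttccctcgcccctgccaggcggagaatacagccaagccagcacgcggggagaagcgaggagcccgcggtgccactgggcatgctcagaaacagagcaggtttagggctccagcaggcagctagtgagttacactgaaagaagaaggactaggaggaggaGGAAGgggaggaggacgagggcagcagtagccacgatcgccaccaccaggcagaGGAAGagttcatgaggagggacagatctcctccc
Col13a1 promoter: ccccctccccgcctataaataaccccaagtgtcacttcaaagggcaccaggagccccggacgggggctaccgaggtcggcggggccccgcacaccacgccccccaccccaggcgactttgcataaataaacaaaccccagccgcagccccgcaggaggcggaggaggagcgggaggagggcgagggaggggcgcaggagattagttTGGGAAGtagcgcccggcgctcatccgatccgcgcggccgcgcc
Chrm3 had 2 matches to GGAAG. Col13a1 had 1, which overlapped its 1 match to TGGGAA, and neither run held ACAAT.

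Further genes among the 15 higher were Nebl, an actin-binding protein, with 58 UMIs in 13 nuclei against 5 UMIs (93.5-fold), and Klf12, a transcription factor, with 58 UMIs in 22 nuclei against 18 (27.8-fold). Piezo2, a mechanically gated ion channel, had 42 UMIs in 12 nuclei against 10 (35.6-fold). The most widely seen were Lrrc3b, with 79 UMIs in 29 nuclei against 28, and Col8a1, a collagen of vessel walls, with 87 UMIs in 25 nuclei against 40 (24.5-fold and 19.0-fold). Lrrc3b was seen in 37.1% of Ad IIb and 2.26% of Ad IIa nuclei at 1000 UMIs, and Col8a1 in 32.4% and 2.72%. Igfbp3, which binds insulin-like growth factors, had 38 UMIs in 13 nuclei against 18. The remaining members were St8sia6, Thsd7b, Efhd1, Alox12 and Sulf1, with 10 to 31 UMIs each and log2 ratios of 4.11 to 4.93. For Sulf1, 14 of 28 UMIs came from 1 nucleus, and without it the log2 ratio was 3.17. Efhd1 and Alox12 kept too few counts for the comparison without their highest nucleus, while the other 12 of the 15, beside Gja5, remained at least 2-fold higher.

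Lower in Ad IIb were 3 genes with no UMI at all. Kirrel3, an adhesion protein, had 223 UMIs in Ad IIa (at least 8.46-fold lower), the collagen Col28a1 122 (at least 4.63-fold) and Lrg1, a secreted glycoprotein, 104 (at least 3.94-fold). Lrg1 was at 417 CPM in Ad IIc, so it was not a gene of Ad IIa alone. Zfpm2, a cofactor of GATA factors, had 5 UMIs against 331. Aqp1 and Car4 were also among the 15. The remaining 9, Fam102b, Samd5, Cxcl9, Gstt2, Tomm70a, Nnmt, Tpi1, Cdh23 and Clybl, had 1 or 2 UMIs in Ad IIb and 80 to 161 in Ad IIa, so their intervals were wide (for Clybl −8.51 to −0.67). Nnmt and Tpi1, genes of metabolism, were at 494 and 236 CPM in Ad IIc, above their levels in both Ad IIb and Ad IIa.

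**Figure D3:**
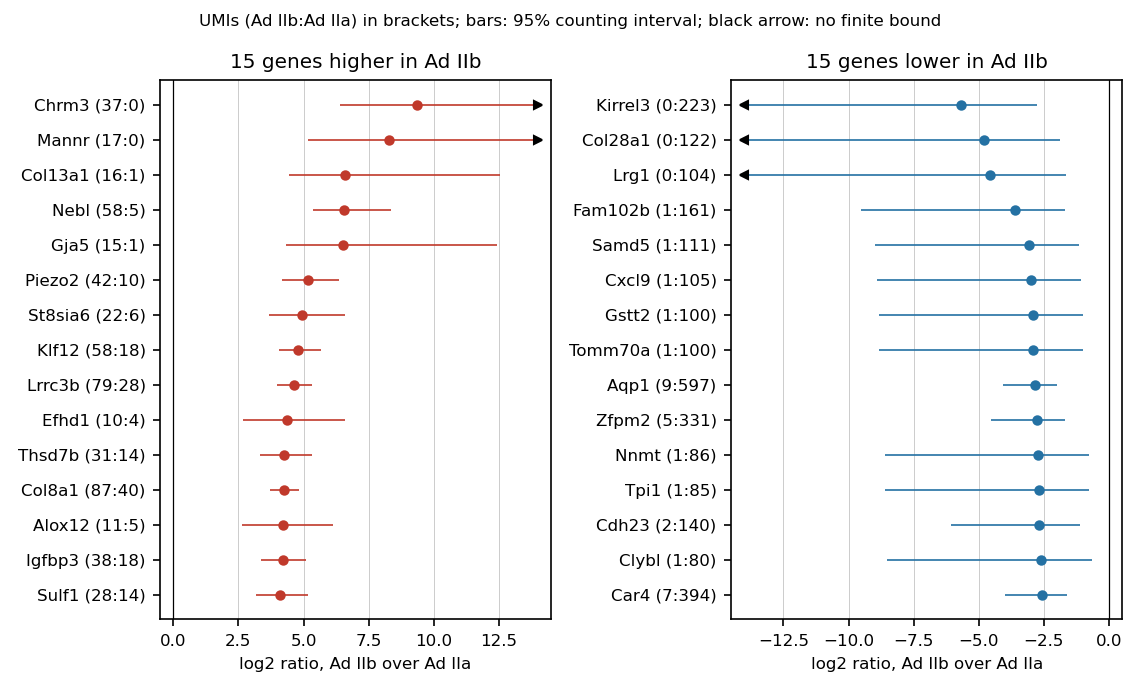
Log2 ratio of the level in Ad IIb over Ad IIa (horizontal axes) for the 15 genes with the largest differences in each direction, with 95% counting intervals and, in brackets, the UMIs in Ad IIb and in Ad IIa. Chrm3 and Mannr had 0 UMIs in Ad IIa and Kirrel3, Col28a1 and Lrg1 had 0 in Ad IIb, so an arrow marks the side without a finite bound.

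Over all compared genes 6.14% were higher and 4.82% lower, and the signalling lists are given beside these shares. In the VEGF list 1 of 10 compared genes, the ligand Vegfc, was higher, a share near that over all genes, and the receptors Kdr at 746 against 719 CPM, Tek at 391 against 367 CPM and Nrp1 at 1229 against 1246 CPM were close. Vegfa, the main ligand, had 0 UMIs in Ad IIb and stood at 231 CPM in Ad I. In the Notch list the ligands Dll4, Jag1 and Jag2 were higher among 9 compared genes, and the target Hes1 was lower with 2 UMIs against 72. The receptors Notch1 and Notch4 had log2 ratios of 0.38 each, with intervals that held 0. In the TGF beta and BMP list 3 of 13 were higher. These were the receptor Tgfbr2 at 455 against 165 CPM (log2 ratio 1.47, 1.03 to 1.88) and the inhibitory Smad6 and Smad7, with 19 and 20 UMIs and log2 ratios of 1.05 and 1.06. With TMM scaling Smad6 and Smad7 were at 0.98 each and no longer counted. The ligand Bmp6 was lower, with 22 UMIs in 11 nuclei against 1177 in 374 Ad IIa nuclei, or 156 against 951 CPM (5.95-fold). At 1000 UMIs Bmp6 was seen in 11.7% of Ad IIb and 51.0% of Ad IIa nuclei. It was in 8.73% of Ad Ia nuclei and in 26.2% of Ad Ib nuclei, of which 20 were left. Tgfbr2 was the only receptor counted as higher in these lists.

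Among 17 compared endothelial transcription factors Sox17 was higher and none was lower, a share near that over all genes. With TMM or median-of-ratios scaling Sox17 was no longer counted, as given above, and Ets2 was lower (−1.04 and −1.01, from −0.97). Erg, Fli1 and Ets1, ETS factors found across endothelium, were at 206, 1300.2 and 924 CPM, against 238, 1855 and 685.5 in Ad IIa. Of 13 junction genes Jam3 and Icam2 were higher (6.14% over all genes), and the log2 ratio of Jam3 was 2.53 (1.80 to 3.21) with 30 UMIs in 12 nuclei. Icam2 had 11 UMIs and an interval that began at 0.00, and its call ended under both other scalings. The median of that list was −0.25. In the basement membrane list 1 of 11 was higher, Col15a1 with 13 UMIs, again close to the share over all genes, and the main collagens Col4a1 and Col4a2 had log2 ratios of 0.59 (0.31 to 0.85) and 0.34 (−0.00 to 0.65).

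Genes of lipid handling and of oxidative phosphorylation mostly lay below 0, with a minority past the 2-fold limit. The fatty acid list had 4 of 12 lower, beside 4.82% over all genes, (Angptl4, Fabp4, Fabp5 and Lpl) and all 12 below 0, with a median of −0.59. Lpl, the lipase made by adipocytes, was at 533 against 1425 CPM, and at 5149 in Ad IIc. Pparg, a factor of adipocytes and fat capillaries, was at 1329 against 2012 CPM, above the 891 CPM of Ad I. Of 13 adipocyte markers compared, 6 were lower (Cfd, Pde3b, Plin1, Plin4, Pnpla2 and Retn) and 12 lay below 0, with a median of −0.82. Cfd, the secreted complement factor D, was at 1272 CPM in Ad IIb, 3189.65 in Ad IIa and 5336 in the unlabelled barcodes. Of 14 genes of oxidative phosphorylation, all 14 lay below 0 and Ndufa4 and Uqcrc1 were lower, with a median of −0.82. Ribosomal protein RNA, at 27618 against 38364 CPM, and the median mitochondrial share, at 2.84% against 4.63%, were also below those of Ad IIa. The part of these and of free adipocyte RNA in the differences was not tested. The adipocyte list was lower in Ad IIb than in the unlabelled barcodes in 12 of 15 compared genes (background 14.1%).

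The 58 Ad IIb nuclei did not share 1 pattern. Plvap and Sema3g were each seen in 22 nuclei, but together in 4, with 18 nuclei holding Plvap without Sema3g, 18 Sema3g without Plvap and 18 neither. These 2 genes and the sets around them were picked after their values were seen, so what follows is a description of these nuclei with no test. With Plvap went Hecw2 (in 19 of the 22 nuclei with Plvap and 12 of the 36 without), Exoc3l2 (11 and 1), Col13a1 (10 and 0), Chrm3 (11 and 2), Nav2 (11 and 3) and Pde7b (11 and 3). Away from it lay St6galnac3 (11 and 30), Fbln5 (4 and 19), Frmd4b (2 and 16), Plcl1 (2 and 16), Atp13a3 (6 and 24) and Col8a1 (4 and 21). Gja5 and Mannr were seen in 0 of the 22 and in 8 and 10 of the 36. The nuclei with Plvap had a median of 2104 UMIs (887 to 4362) and those without 2331.5 (505 to 5899), and these counts were not thinned to a common depth. At least 2 of the 6 genes seen with Plvap were found in 20 nuclei, and at least 2 of the 6 seen away from it in 40. Only 3 nuclei had both and 1 had neither. In Ad IIa the corresponding numbers were 46, 130 and 16 of 590 nuclei.

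**Figure D4:**
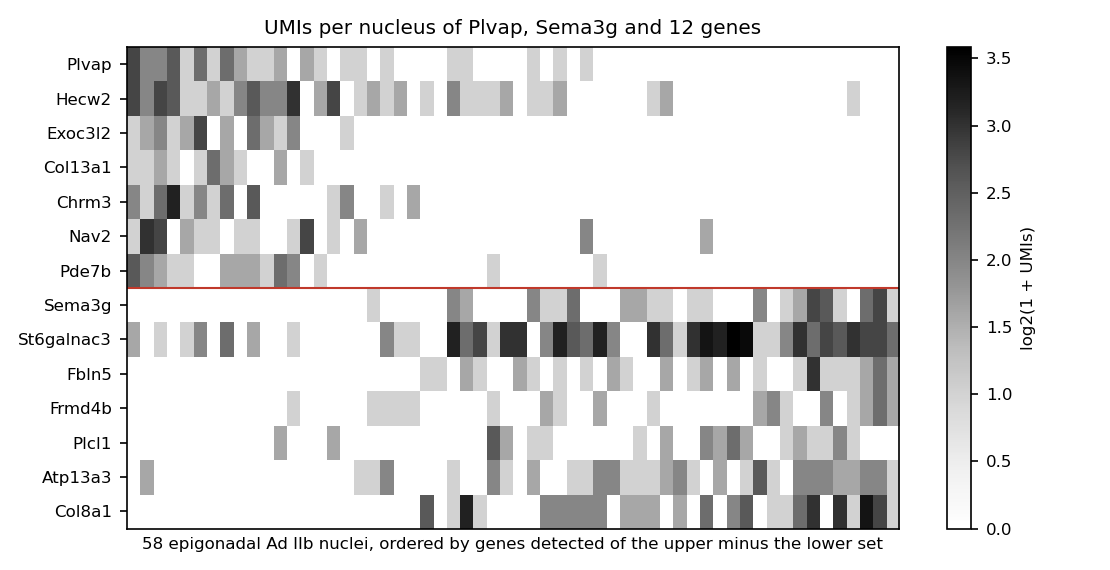
UMIs of Plvap, Sema3g and 12 further genes (rows, grey scale in log2 of 1 plus the UMIs) in each of the 58 Ad IIb nuclei (columns), ordered by the number of genes detected of the upper set minus that of the lower set. The order follows from the genes shown. Most of the 20 nuclei with at least 2 of the 6 genes seen with Plvap lie to the left. The 20 share 3 nuclei with the 40 that have at least 2 of the other 6.

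The nuclei with Sema3g were deeper than those without, with medians of 2534 and 1863.5 UMIs, so the detection counts below compare nuclei of unlike depth. Col8a1 was seen in 16 of the 22 nuclei with Sema3g and 9 of the 36 without, Fbln5 in 15 and 8, Vegfc in 12 and 4, Jazf1 in 12 and 3 and Palld in 11 and 2. Chrm3, Pde7b, Piezo2, Exoc3l2 and Col13a1 were seen in 0 of the 22 nuclei with Sema3g and in 13, 14, 12, 12 and 10 of the 36 without. The arterial list, which does not hold Plvap, was at 971 CPM in the nuclei with Plvap and 2578 CPM in those without. Of the 15 genes with the largest differences from Ad IIa, Chrm3, Col13a1 and Piezo2 were thus seen mostly with Plvap, and Gja5, Mannr and Col8a1 mostly without it. Others lay on both sides, such as Lrrc3b (9 of the 22 nuclei with Plvap and 20 of the 36 without), Alox12 (4 and 4) and Efhd1 (5 and 4).

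The nuclei with Plvap differed from the others in further vessel genes. Emcn, a sialomucin of capillaries and veins, was at 1126 CPM in them and 482 without Plvap, and Kdr, the main VEGF receptor, at 1048 and 571.5. Flt1 was at 3184 and 1928 CPM. All 3 are on the endothelial list, and the whole list stood at 15356 and 12148 CPM. Tshz2 had 131 of its 187 UMIs in the nuclei with Plvap (2543 against 628 CPM), while Vwf was at 0 there and had 8 UMIs in the rest. Meis2, a homeobox factor, had 22 of 24 UMIs with Plvap, Jam3 26 of 30, Igfbp3 30 of 38 and Piezo2 31 of 42. Igfbp7, a secreted vessel protein, was at 2194 against 829 CPM. Basement membrane genes were at 5377 and 3575 CPM, and fatty acid genes at 9920.2 and 17135. Of the fatty acid genes, Fabp4 alone was at 5319 and 8965 CPM. Bmp6, low in Ad IIb as a whole, had 2 UMIs with Plvap and 20 without, and Tgfbr2 stood at 272 and 560.3 CPM. Adipocyte markers were at 4135 (3598 to 4729) and 4819 (4374 to 5297) CPM, and mural markers had 3 and 21 UMIs. Without the nuclei that held Plvap, the remaining 36 had 221 genes higher and 140 lower than Ad IIa, where all 58 had 288 and 226. These 36 held 89232 nuclear-encoded UMIs against 140743 in all 58, so fewer genes can reach the minimum. The part of this in the counts was not tested.

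Each nucleus was also scored against the summed profile of every epigonadal label, with the nucleus left out of its own label. The best profile was Ad IIb for 30 of the 58 nuclei and Ad IIa for 28, and no nucleus fitted Ad Ia, Ad Ib or Ad IIc best. Of the 590 Ad IIa nuclei 582 were closest to their own label and 3 to Ad IIb. Per 1000 UMIs the log likelihood under Ad IIb less that under Ad IIa ran from −113 to 124 over the 58 nuclei, with a median of 3.64. Leaving out ribosomal protein genes, Malat1, Gm42418 and AY036118 gave 31 nuclei closest to Ad IIb, and heavier smoothing of the profiles gave 35. With the heavier smoothing 570 Ad IIa nuclei were closest to their own label and 13 to Ad IIb. The profile of a label with 58 nuclei is less well known than that of one with 590, and the part of this in the score was not tested.

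Against Ad I, whose nuclei carry adipocyte RNA, 908 of 4859 genes were higher in Ad IIb (18.7%) and 698 lower (14.4%), with a median log2 ratio of 0.16. With TMM scaling the median was −0.03 and the share of calls that were higher went from 56.5% to 47.4% (49.9% with median-of-ratios scaling), so the balance turned round. All 16 endothelial markers were higher, with a median of 2.78. The arterial list had a summed log2 ratio of 3.17 (2.77 to 3.61). Among adipocyte markers 12 of 15 were lower, with a median of −2.65. Ghr, the growth hormone receptor, stood at 632 CPM in Ad IIb, 632 in Ad IIa and 13591 in Ad I. The largest differences upward were in Vegfc, with 35 UMIs against 0 (at least 21.9-fold), Thsd7b, with 31 against 0 (at least 19.4-fold), and Fbln5, with 40 against 1. Il17rd, Itga9, Pitpnm3, Alox12 and Lrrc32 had 11 or 12 UMIs against 0. Downward they were Mir99ahg (0 against 288 UMIs, at least 51.2-fold), the adhesion proteins Negr1 (0 against 244, at least 43.4-fold) and Ptprd (0 against 158, at least 28.1-fold), Tenm4 (1 against 435), and Slc1a3, a glutamate transporter (6 against 1750). Smoc1, Adcy5 and Alcam also had 0 UMIs in Ad IIb.

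Against Ad IIc, 1938 of 4727 genes were higher (41.0%) and 1188 lower (25.1%), with a median log2 ratio of 0.62. This median moved to −0.03 with TMM scaling and 0.06 with median-of-ratios scaling. The share of calls that were higher then fell from 62.0% to 47.6% and 49.6%, so this split depends on the scaling. All 16 endothelial markers were higher, with a median of 4.28. The arterial list was at 1989 against 50.4 CPM, a summed log2 ratio of 5.28 (4.72 to 5.94). Klf12 and Nebl had 58 UMIs each in Ad IIb and 0 in Ad IIc (at least 70.9-fold). Apba1 and Sema7a had 46 and 42 UMIs against 0, Thsd7b 31, Lama3 29 and Exoc3l2 28, and Col8a1 had 87 against 1. All 15 genes of oxidative phosphorylation were lower in Ad IIb, with a median of −2.59. Lrg1 had 0 UMIs against 215 (at least 19.5-fold), and Ndufb6, Gpt2, Tmem120a, Maf, Aldh1a1 and Orm1 had 0 as well, while Nnmt had 1 against 255. Ad IIc nuclei had fewer UMIs and higher mitochondrial shares, as given above, and the part of this in the differences was not tested.

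Against the unlabelled barcodes 845 of 4903 genes were higher (17.2%) and 693 lower (14.1%), with a median of 0.18, which TMM scaling moved to 0.01. With it the share of calls that were higher went from 54.9% to 44.8%. Of the endothelial markers 15 of 16 were higher than in these barcodes (median 1.94), and the arterial list was at 1989 against 228 CPM. Pecam1 stood at 1322 against 301 CPM, Sema3g at 369.5 against 31.0, and Plvap at 313 against 15.9. These barcodes are a mix of cells and free RNA, and the level of free RNA alone was not measured.

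The 16 thymic nuclei with the same label held 27020 nuclear-encoded UMIs, with a median of 1801.5 UMIs and of 15.1% mitochondrial RNA in a nucleus. Their endothelial list was at 15248 CPM and their adipocyte list at 2665. All 16 had more endothelial than adipocyte UMIs, and Pecam1 was seen in 14 of them and Flt1 in 16. The arterial list was at 2591 CPM, against 709.9 in the 231 thymic Ad IIa nuclei. Both libraries were clustered together for the labels, so the thymic nuclei are no independent check. Of the genes higher in epigonadal Ad IIb than Ad IIa, 57 of 288 had enough counts in the thymic pair, and of those lower in epigonadal Ad IIb 25 of 226. A gene of low level reaches the minimum in the thymic pair mainly through the label where it is high, so the directions of these genes are not counted. In the thymic pair as a whole 103 of 1098 genes were higher (9.38%) and 59 lower (5.37%). With TMM scaling these numbers were 46 and 150, so the split between higher and lower turned round.

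Values of single genes in the thymic pair follow as a description. These genes were chosen for their epigonadal values, and Nebl, Thsd7b, Fbln5, Col8a1, Sema3g and Sox17 reached the count minimum through the thymic Ad IIb nuclei, so they are no support for the epigonadal differences. Sema3g had 9 UMIs in 8 of the 16 nuclei, with a log2 ratio over thymic Ad IIa of 2.53 (1.19 to 3.63), and Fbln5 had 10 UMIs, with 5.48 (3.67 to 8.13). Nebl had 24 UMIs against 1, Thsd7b 11 against 0 (at least 54.5-fold) and Col8a1 50 against 25, in 13 of 16 nuclei. Sox17 was at 1.70 (0.41 to 2.69), and at 1.23 with TMM scaling, where it was no longer counted as higher. Aqp1 and Car4 had 0 UMIs in the 16 nuclei against 245 and 135, Car4 with too few counts for the comparison, and Bmp6 had 3 against 705. Of 14 endothelial markers compared in the thymic pair, Adgrl4 and Kdr were lower (5.37% over all genes) and none was higher. Kdr was at −1.14 (−2.12 to −0.41) in the thymic pair and at 0.06 (−0.25 to 0.35) in the epigonadal pair. The difference between the pairs was not tested. Chrm3 and Plvap, of the group of genes seen away from Sema3g, had 1 and 2 UMIs in thymic Ad IIb, each in 1 nucleus. At least 2 of the 6 genes seen with Plvap were found in 2 thymic nuclei, and at least 2 of the other 6 in 14.

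**Figure D5:**
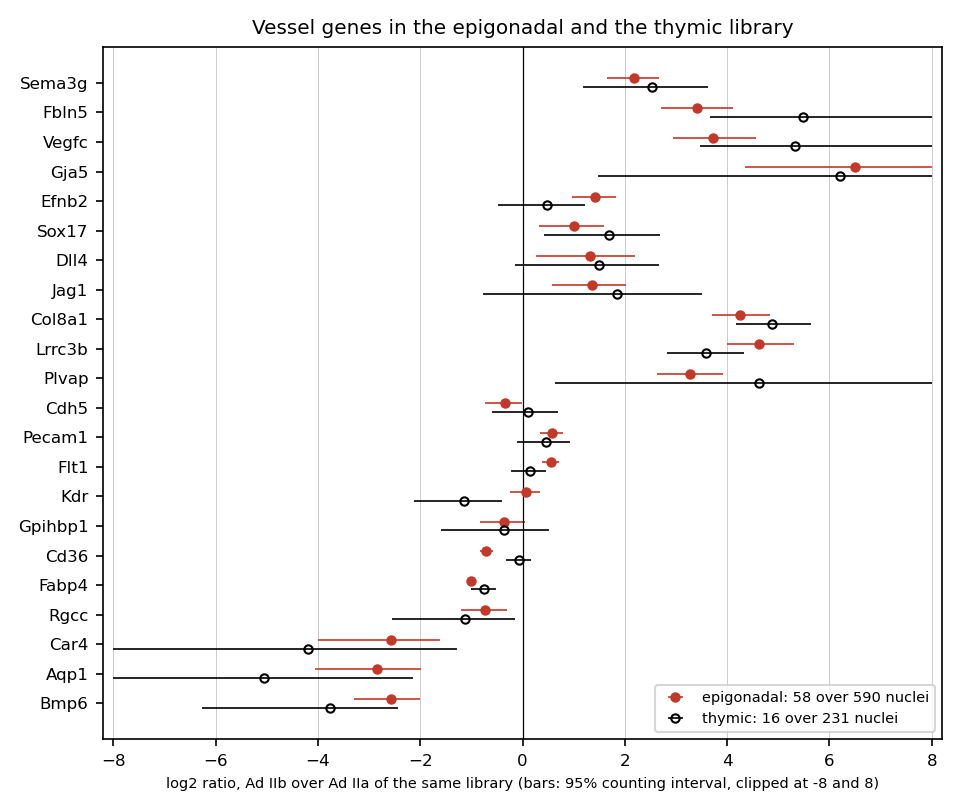
Log2 ratio of the level in Ad IIb over Ad IIa of the same library (horizontal axis, clipped at −8 and 8) for 22 vessel genes, in the epigonadal (58 over 590 nuclei, filled) and the thymic library (16 over 231 nuclei, open), with 95% counting intervals. The genes were chosen with their epigonadal values known, and several, Vegfc and Car4 among them, had too few thymic counts for the comparison. Kdr lies at 0.06 in the epigonadal and −1.14 in the thymic library.

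Thymic and epigonadal Ad IIb nuclei could also be set side by side. Of 1050 genes 117 were higher in the thymic nuclei (11.1%) and 31 lower (2.95%), with a median of 0.34. With TMM scaling 34 were higher and 97 lower, and with median-of-ratios scaling 45 and 84, so the direction of the balance depends on the scaling. Of 13 compared endothelial markers none was higher or lower, though Kdr was lower with TMM scaling (−1.05, from −0.59). Higher in the thymic nuclei were Col8a1 (log2 ratio 1.59), Epha4 (1.61), Gata2, a factor of endothelial and blood cells (2.26), Klf12 (1.29), Nebl (1.13) and Tgfb2 (2.72). Klf12 and Nebl were no longer counted with TMM (0.83 and 0.67) or median-of-ratios scaling (0.91 and 0.74). Lower were Plvap (−1.77), Piezo2 (−1.71), Tshz2 (−3.00), Col4a2 (−1.96), Tgfbr2 (−1.46) and Scd1 (−2.14), and among adipocyte markers Cfd (−4.52) and Cidec, with 0 UMIs against 57 and a level at least 3.65-fold lower. Tissue, library and mitochondrial share all differ between these nuclei and cannot be told apart.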

How the data were processed

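Each deposited matrix is a table of unnormalised UMI counts. The file headers name cellranger 7.2.0. The submitters' processing notes name mm10, Cell Ranger ARC 2.0.2 and Seurat 5.1.0. No source used here states whether intronic reads were counted. A deposited table of nuclei adds the UMI count and detected genes of each, the percent of its UMIs that the authors took as mitochondrial, the doublet call and the label. For Ad IIb the matrix sums equalled the deposited UMI count in 12 of 58 nuclei and exceeded it by at most 0.202% in the rest.

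Counts of 40 repeated symbols among 32285 features were merged, and UMIs were summed per label. Levels are CPM of nuclear-encoded UMIs. Before taking log2 ratios, 0.5 UMI went onto both sums, and the ratios had exact binomial intervals at 95%. Levels had exact Poisson and shares Clopper-Pearson intervals. A count of 0 was given a limit of 3 counts. Genes expected to have at least 5 UMIs in the smaller sum were compared, and those at least 2-fold apart with an interval leaving out 0 were counted. A score was each nucleus's multinomial likelihood under each label's profile, smoothed with 1000 UMIs of the pooled profile.

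The members, the 14 marker lists, the 19 other lists, the rules and the alternatives were chosen with earlier results of these data known. All 372 list genes were in the matrices. Genes named were list members, the 15 largest ratios in each direction against Ad IIa and the 8 largest against Ad I and Ad IIc, with UMIs in at least 8 nuclei of the higher label. That ranking skipped predicted genes and those of ribosomal proteins and mitochondria. The genes split by Plvap or Sema3g were chosen after their values were seen. Alternatives were edgeR 4.0.16 TMM scaling, scaling by median of ratios, the same weight for every nucleus, a pseudocount of 5, minimums of 2 and 10 UMIs, and nuclei with at least 500 UMIs. Leaving out single nuclei, shared barcodes or nuclei with Plvap was added after seeing the data, as was the smoothing with 10000 UMIs. The ratio and interval code was tested on simulated data. Python 3.11.15, numpy 2.4.6, scipy 1.17.1, pandas 2.3.3 and R 4.3.3 were used.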

Additional observations from a re-analysis of the deposited data

How the results depend on the processing

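No paired analysis was possible because each group was 1 library. Counts of genes higher and lower in Ad IIb against Ad IIa were 157 and 130 with a minimum of 10 UMIs, and the lower count was 48 with a pseudocount of 5 and 140 without the nuclei that held Plvap, from 288 and 226. With a minimum of 10 UMIs, 426 genes were lower against Ad I, 1195 higher against Ad IIc and 393 lower against the unlabelled barcodes. A pseudocount of 5 gave 302 lower against the unlabelled barcodes. Thymic over epigonadal Ad IIb had 52 and 19 (minimum of 10 UMIs), 206 and 64 (minimum of 2 UMIs), 34 and 97 (TMM) and 45 and 84 (median-of-ratios), and 14 lower with a pseudocount of 5. Thymic Ad IIb over thymic Ad IIa had 46 and 150 with TMM and 17 lower with a pseudocount of 5. Fewer genes pass a higher minimum. A pseudocount of 5 adds more CPM to the smaller sum than to the larger. By construction this raises the ratio of every gene with fewer UMIs in the smaller sum, so fewer genes are counted as lower. The cause of the other moves was not tested. At 1000 UMIs a nucleus the Ad IIb shares of Pecam1, Cdh5 and Flt1 were 73.0%, 31.5% and 84.4%. With the nuclei that held Plvap left out, its log2 ratio reversed to −2.55, by construction. With TMM or median-of-ratios scaling the list genes Efnb1, Ets2, Gbp2 and Thrsp were also lower against Ad IIa. Of 2192 values of single genes under an alternative, 2134 stayed within their counting interval, 57 moved beyond it and 1 reversed. Part of this was fixed in advance. The minimums of 2 and 10 UMIs gave 249 of these values each and cannot change a ratio. The cut at 500 UMIs gave another 249 and removed no nucleus. For 20 lists against Ad IIa the median shifted by less than the standard deviation of its members' ratios under all 9 alternatives run. A change of sign was counted only for medians of at least 1 in size. The minimums and the cut at 500 UMIs could not move these medians either. With a pseudocount of 5 the median over all compared genes went from 0.05 to 0.44.

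The limits are 1 library per group, 58 nuclei and 140743 UMIs. At this depth a count of 0 allows up to 21.3 CPM. The labels came from clustering these same nuclei. Free RNA, doublets and mixed droplets were not separated from the RNA of the nuclei.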

Other observations

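Further lists were compared between the epigonadal Ad IIb and Ad IIa nuclei, where 6.14% of all compared genes were higher and 4.82% lower. Of 11 compared interferon genes, Irf9, a subunit of the interferon-responsive factor, was higher, with 15 UMIs and a log2 ratio of 1.82 (0.83 to 2.69). Irf9 reached the minimum through its counts in Ad IIb. The antiviral gene Rsad2 was at 277 against 276 CPM and Iigp1 at 213 against 263. None of 5 compared genes of antigen presentation was higher or lower. H2-K1 was at 973 against 748 CPM, and the class II genes H2-Aa and H2-Eb1 had 0 UMIs in Ad IIb. Of 11 immediate early genes Fosl2 and Nr4a1 were higher, and both reached the minimum through their counts in Ad IIb. Nr4a1, an orphan nuclear receptor, had 15 UMIs in 9 nuclei against 10 in Ad IIa, with 12 of the 15 in nuclei with Plvap. Fos had 1 UMI and Fosb 1.

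Of 12 compared guidance genes 2 were higher (6.14% over all genes). They were Efnb2 and its receptor Epha4, the latter at 220 against 82.5 CPM (log2 ratio 1.43, 0.79 to 2.01). Sema6a was at 647 against 1174 CPM, and Ephb4, the venous partner of Efnb2, at 163 against 134. Of 9 compared lipogenic genes Acly and Scd1 were lower (4.82% over all genes) and all 9 lay below 0, and the list was at 1492 against 2625 CPM, a summed log2 ratio of −0.81. Among 20 cell cycle genes 16 had 0 UMIs in Ad IIb, Mki67 and Top2a included, and the list reached 35.5 CPM.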
